A study of Mus musculus with 8 samples.

Results

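The 9 genes described here encode the contractile apparatus of smooth muscle, which in the mouse testis is carried by the peritubular myoid cells, the flat cells that wrap each seminiferous tubule. They are the actins Acta2 and Actg2, the myosin heavy chain Myh11, the regulatory light chain Myl9, its kinase Mylk, the actin-associated regulators Smtn, Cnn1 and Tagln, and the intermediate filament gene Des. Each was taken by its symbol from the gene counts of 8 RNA-seq libraries of whole testis. All 9 of the 9 had an entry among 54087 genes counted, and all 9 passed the filter on low counts together with 23353 genes in all.

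Testes came from male C57BL/6 mice that were Dnmt3A KO/KO or Dnmt3A WT/WT at 25 and 19 days post partum (dpp), with 2 libraries in each of the 4 groups. Dnmt3A is a de novo DNA methyltransferase. The sources used here name no Cre line, promoter or deleted exon for the KO allele, and they do not say whether the 2 libraries of a group came from separate animals, so p-values measure the spread between these libraries only. The design compares the genotypes at 25 and at 19 dpp, the ages within KO and within WT, and the KO effect at 25 dpp with that at 19 dpp.

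In smooth muscle, calcium bound to calmodulin switches on myosin light chain kinase, the product of Mylk, which phosphorylates the light chain Myl9 and so lets Myh11 filaments pull on actin filaments of Acta2 and Actg2. Calponin (Cnn1), transgelin (Tagln) and smoothelin (Smtn) bind actin, and desmin (Des) forms filaments that tie the apparatus to the cell's anchor points. Myoid cells use this machinery to squeeze the tubule and move sperm and fluid along it, and blood vessel walls in the testis use the same genes. Many of these genes are known targets of serum response factor, which binds a DNA element named the CArG box and acts with myocardin family cofactors.

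The promoters are shown because many of the 9 genes are known targets of this factor and 5 of them, Acta2, Myh11, Mylk, Myl9 and Smtn, were called lower at 25 than at 19 dpp in both genotypes. RefSeq promoters (GRCm38.p6, from 250 bases before to 50 bases after the start that RefSeq gives) were at hand for 6 of the 9 genes. An exact CArG box was found in the Myl9 promoter, 161 bases before the start, and CArG-like elements with 1 mismatch lay 99 bases before the start in Myl9 and 34 and 84 bases before it in Acta2. The promoters of Acta2 (chr19:34255324-34255623, minus strand) and Myl9 (chr2:156775214-156775513, plus strand) are given 5′ to 3′ with these elements in capitals.
Acta2: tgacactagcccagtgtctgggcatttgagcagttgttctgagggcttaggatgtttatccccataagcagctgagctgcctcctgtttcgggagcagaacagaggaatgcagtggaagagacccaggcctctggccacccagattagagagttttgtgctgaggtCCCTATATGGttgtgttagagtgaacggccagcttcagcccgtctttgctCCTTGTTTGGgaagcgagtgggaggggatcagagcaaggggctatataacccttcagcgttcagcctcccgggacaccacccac
Myl9: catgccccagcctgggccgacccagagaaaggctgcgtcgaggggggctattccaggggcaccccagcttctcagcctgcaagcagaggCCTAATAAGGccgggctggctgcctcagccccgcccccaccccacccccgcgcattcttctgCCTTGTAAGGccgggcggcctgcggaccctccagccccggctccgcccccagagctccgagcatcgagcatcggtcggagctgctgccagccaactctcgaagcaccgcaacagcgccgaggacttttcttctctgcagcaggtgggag
The CArG box pattern is its own reverse complement, so that a search of 1 strand covers both, and the elements found did not overlap each other. An exact box was present in 1.63% of 32851 promoters of the same length, and a box with up to 1 mismatch in 21.1%. The windows of Cnn1, Des, Mylk and Smtn held neither form, and the Mylk and Smtn windows lie inside these genes as annotated by GENCODE M21, downstream of their outermost starts. Most of the Acta2 window, with both its elements, also lies inside the annotated gene, whose outermost start is chr19:34255590. The distances given are from the RefSeq starts.

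On mm10 with the GENCODE M21 annotation, all 9 are protein-coding genes on 7 autosomes. Acta2 spans chr19:34241090-34255590 and Actg2 chr6:83512905-83536265, both on the minus strand. Myh11 spans chr16:14194535-14291372 on the minus strand, and Mylk spans chr16:34745210-35002420 on the plus strand of the same chromosome. Myl9 lies at chr2:156775420-156781658 (plus), Smtn at chr11:3517523-3540612 (minus), Cnn1 at chr9:22099216-22109630 (plus), Tagln at chr9:45929619-45936058 (minus) and Des at chr1:75360329-75368579 (plus). None of the 9 overlaps another gene on its own strand, and Mylk, Tagln, Des and Smtn overlap genes on the opposite strand. The strand setting of the counting is not given in the sources used here, so reads of these 4 genes and of their opposite-strand partners may not be separated. For Tagln the partner is the protein-coding Pcsk7, with 66.6 and 77.5 CPM in KO and 70.4 and 71.4 CPM in WT at 25 dpp, against 45.8 and 49.0 CPM in KO and 60.7 and 68.3 CPM in WT at 19 dpp. The actins are close in protein sequence, but of the 50-base stretches of Actg2 transcripts 0% occurred in another gene, and of those of Acta2 0.326%.

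Gene totals were 22515812 to 50445334 counts per library, and levels are given as CPM, gene counts divided by the TMM-adjusted library size, where a floor of 3 counts was 0.0811 to 0.126 CPM. Dnmt3a itself had 76.8 and 67.2 CPM in KO and 48.7 and 70.0 CPM in WT at 25 dpp, and 114 and 112 CPM in KO and 147 and 141 CPM in WT at 19 dpp, and neither contrast passed the edgeR test (adjusted p = 0.204 and 0.201). A count over the whole gene does not check a deletion of unstated extent. In WT at 25 dpp replicate 1 stood apart from replicate 2 in 12 spermatid genes, which summed to 3676 and 662 CPM. In KO at 25 dpp replicate 1 held transcripts of the epididymis genes Crisp1, Cuzd1 and Spink8 at 11.3, 17.6 and 6.52 CPM, against 0.0355, 0.994 and 0.142 CPM in replicate 2, while Lcn5, Lcn8 and Lcn9 were near 0 in both. Cst8, which made up 63.8% of the sum of the 9 listed epididymis genes, went the other way. It had 2.19 and 2.84 CPM in KO and 75.8 and 12.1 CPM in WT at 25 dpp. The 9 genes summed to 38.2 and 4.22 CPM in KO and 90.4 and 24.1 CPM in WT at that age. Other smooth muscle was present too: 11 vascular smooth muscle and pericyte genes summed to 101 to 258 CPM over the 8 libraries. Of 12 skeletal muscle genes 8 passed the filter, and the 12 summed to 23.8 to 57.4 CPM, of which Actn3 (11.4 to 46.9 CPM) made up 70.5%; Acta1 was at 0.0321 to 0.191 CPM and Myh1 at 1.51 to 5.20 CPM. In whole-testis RNA, fewer cells of a type and less RNA per cell cannot be told apart.

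The 9 genes differed widely in level. Per kilobase of exon, Myl9 and Acta2 stood above the rest in 3 of the 4 groups. In KO testes at 25 dpp Myl9 averaged 108 ± 1.49 and Acta2 66.8 ± 19.6 CPM per kilobase, and in WT at that age 83.5 ± 15.1 and 59.8 ± 8.64 (SD, n = 2 each). In KO at 19 dpp these genes averaged 213 ± 17.5 and 151 ± 4.43 CPM per kilobase, and in WT 135 ± 4.41 and 121 ± 20.2, where the libraries of the 2 genes overlapped. Tagln, Mylk and Myh11 followed, at 22.7, 17.6 and 14.1 CPM per kilobase in KO and 18.8, 11.1 and 11.7 in WT at 25 dpp, and at 29.0, 28.6 and 28.3 in KO and 33.9, 19.1 and 22.9 in WT at 19 dpp. These 3 could not be ordered in KO at 19 dpp, nor Mylk against Myh11 in WT at 25 dpp, because their libraries overlapped. Smtn was next, overlapping Cnn1 in WT at 25 dpp, with 6.34 ± 1.12 in KO and 3.79 ± 0.990 in WT at 25 dpp and 12.7 ± 1.56 in KO and 8.32 ± 0.0720 in WT at 19 dpp (CPM per kilobase, SD, n = 2 each). Cnn1 and Des, at 1.82 and 2.43 in KO and 3.15 and 2.36 in WT at 25 dpp and 4.30 and 5.39 in KO and 4.42 and 3.03 in WT at 19 dpp, were at the bottom. Actg2 shared the bottom ranks with them in 3 groups (3.30 CPM per kilobase in KO at 25 dpp, 7.14 in KO and 4.74 in WT at 19 dpp), but averaged 37.7 ± 31.4 in WT at 25 dpp, where its libraries spanned those of Tagln and reached those of Acta2.

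**Figure D1:**
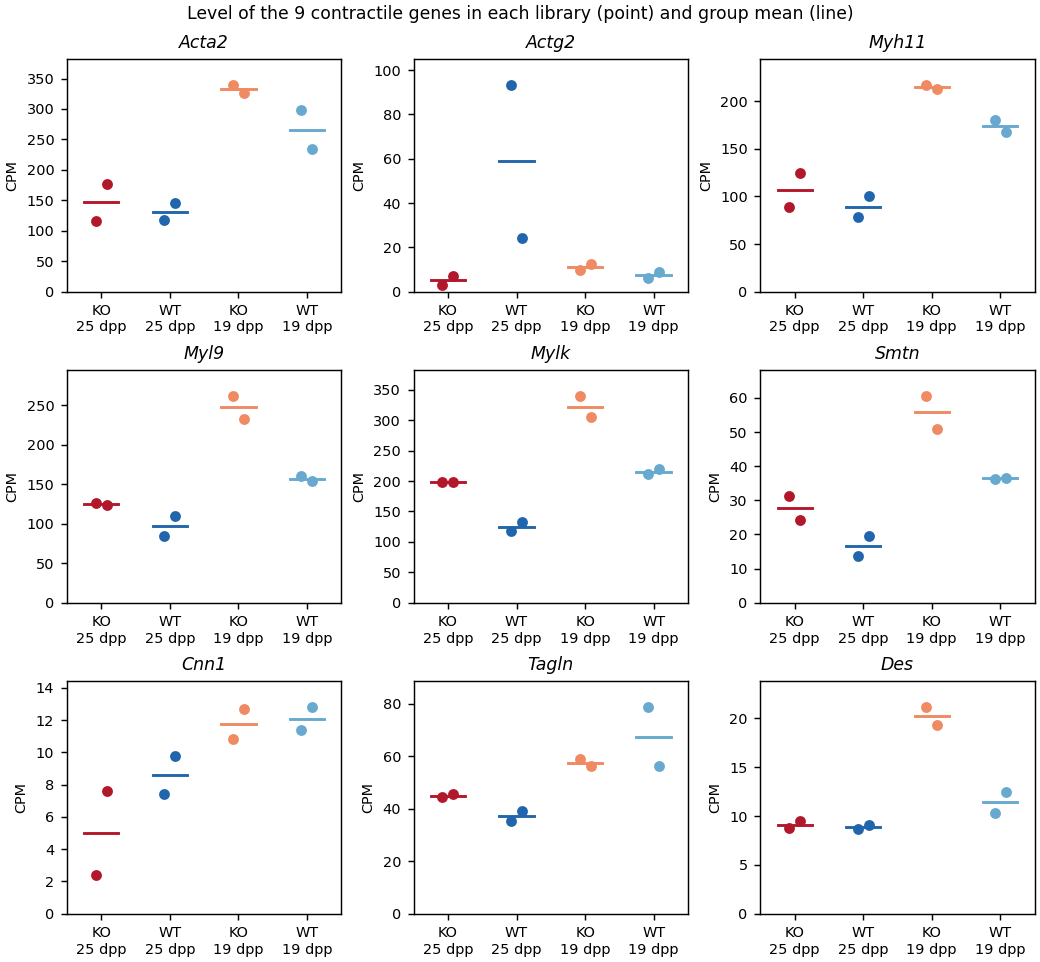
Level of each contractile gene in CPM (vertical axes, from 0) in the 4 groups, with a point per library and a line at the mean of 2. The points at 25 dpp lie below those at 19 dpp of the same genotype for every gene but Actg2, whose 2 WT libraries at 25 dpp (93.3 and 24.2 CPM) lie above all others.

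At 25 dpp, Mylk and Smtn rose in KO testes, Actg2 fell, and the other 6 genes did not pass the test. Of the 9 genes, 2 were called higher and 1 lower, where 26.1% of all 23353 genes were called higher and 37.4% lower (63.5% in either direction). The members' median log2 fold change was 0.27 and that of all genes −0.12. Both KO libraries lay above both WT libraries for 4 of the 9 genes and below them for 1, arrangements found in 38.5% and 46.1% of all genes. Mylk, the kinase that starts contraction, had 198 and 199 CPM in KO and 118 and 132 CPM in WT. Both KO libraries lay above both WT libraries, and the log2 fold change was 0.67 ± 0.119 (SE; edgeR quasi-likelihood, adjusted p = 0.00218). The Mylk locus also makes telokin, a short product of its 3′ end, and counts per gene do not separate the products. Smtn, whose product marks contractile smooth muscle, had 31.2 and 24.3 CPM in KO and 13.5 and 19.7 CPM in WT. Its groups did not overlap either, and it rose by 0.74 ± 0.223 on the log2 scale (edgeR adjusted p = 0.0202). Leaving out replicate 1 of either genotype at 25 dpp ended the Smtn call (edgeR adjusted p = 0.125 for KO and 0.0682 for WT).

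The myosin light chain gene Myl9 had 126 and 124 CPM in KO and 84.6 and 109 CPM in WT at 25 dpp. The groups did not overlap, yet the log2 fold change of 0.37 ± 0.148 missed the threshold (edgeR adjusted p = 0.0592). Tagln likewise had 44.4 and 45.7 CPM in KO and 35.5 and 39.2 CPM in WT, with a log2 fold change of 0.27 ± 0.179 (edgeR adjusted p = 0.217). Acta2, the main actin of smooth muscle and the usual marker of myoid cells, had 116 and 177 CPM in KO and 118 and 145 CPM in WT. Its KO libraries bracketed the WT ones, and its log2 fold change was 0.16 ± 0.219 (edgeR adjusted p = 0.548). Myh11, the smooth muscle myosin heavy chain, had 88.9 and 125 CPM in KO and 78.0 and 99.9 CPM in WT, overlapping groups with a log2 fold change of 0.27 ± 0.188. Des was nearly level, at 8.79 and 9.48 CPM in KO and 8.67 and 9.04 CPM in WT. Cnn1 split by library, with 2.38 and 7.59 CPM in KO and 7.44 and 9.77 CPM in WT, and its log2 fold change of −0.79 ± 0.482 did not pass (edgeR adjusted p = 0.184). Without KO replicate 2 at 25 dpp Cnn1 was called lower, at −1.85 (edgeR adjusted p = 0.00664).

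These directions depended on the scaling. Sertoli cell genes, 25 in number, summed to 10937 and 9246 CPM in KO and 3246 and 4118 CPM in WT at 25 dpp, and 23 of the 25 were called higher. Scaling to those genes shifted the all-gene median by −1.46, and all 9 contractile genes were called lower in KO, Mylk at −0.79, Smtn at −0.71 and Acta2 at −1.26. On that scale 16634 of all 23353 genes were called in either direction, and the all-gene median was −1.58. Using total gene counts as library sizes shifted that median by 0.46, and 6 of the 9 were called higher and Actg2 lower. With total counts 16100 of all genes were called in either direction, and the all-gene median was 0.34. Actg2 was lower under each of these scalings.

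At 19 dpp, Mylk, Myl9 and Des rose in KO testes and no member fell. The count of 3 called higher of 9 stood beside 8.8% of all genes called higher (22% in either direction), and the count of 0 called lower beside 13.2%. The median was 0.58 for the members and 0 for all genes. With DESeq2 4 were called higher, Smtn being the fourth, and 0 lower, where 7830 of all 23353 genes were called in either direction. For 7 of the 9 genes both KO libraries lay above both WT libraries, an arrangement found in 32.7% of all genes, and for 0 of the 9 below them (33.8%).

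Mylk had 340.0 and 305 CPM in KO and 211 and 219.6 CPM in WT at 19 dpp, a log2 fold change of 0.58 ± 0.119 (edgeR adjusted p = 0.0149). Myl9 had 262 and 233 CPM in KO and 161 and 153 CPM in WT. It rose by 0.65 ± 0.148 (edgeR adjusted p = 0.0207). Des, with 21.2 and 19.3 CPM in KO and 10.3 and 12.4 CPM in WT, had the highest fold change of the 9, 0.83 ± 0.199 (edgeR adjusted p = 0.0246). In linear terms Myl9 was 1.57-fold and Des 1.78-fold higher in KO testes. Smtn had 60.6 and 50.9 CPM in KO and 36.2 and 36.7 CPM in WT, groups that did not overlap, and missed the threshold (0.61 ± 0.221, edgeR adjusted p = 0.0846).

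Among the filament proteins proper, Acta2 had 339.5 and 326 CPM in KO and 298 and 235 CPM in WT at 19 dpp (log2 fold change 0.32 ± 0.219), and Myh11 had 217 and 212 CPM in KO and 180.3 and 168 CPM in WT (0.30 ± 0.188). Both lay above WT in each KO library and neither passed the test (edgeR adjusted p = 0.334 and 0.289). Tagln had 59.1 and 56.2 CPM in KO and 78.8 and 56.2 CPM in WT, and Cnn1 had 10.8 and 12.7 CPM in KO and 11.4 and 12.8 CPM in WT. These 2 actin-binding genes overlapped between genotypes, with log2 fold changes of −0.23 ± 0.178 and −0.04 ± 0.473. The 3 calls at 19 dpp ended without replicate 1 of KO, when edgeR called none of all genes (2106 higher and 3192 lower had an unadjusted p under 0.05), and without either WT replicate; without replicate 2 of KO only Mylk was called. Scaled to Sertoli genes, whose sums were 13168 and 11810 CPM in KO and 7259 and 6478 CPM in WT, the all-gene median shifted by −0.83, the 1 member called was Tagln, lower at −1.08, and Mylk, Myl9 and Des turned to −0.29, −0.21 and −0.05. On that scale 9794 of all 23353 genes were called in either direction.

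**Figure D2:**
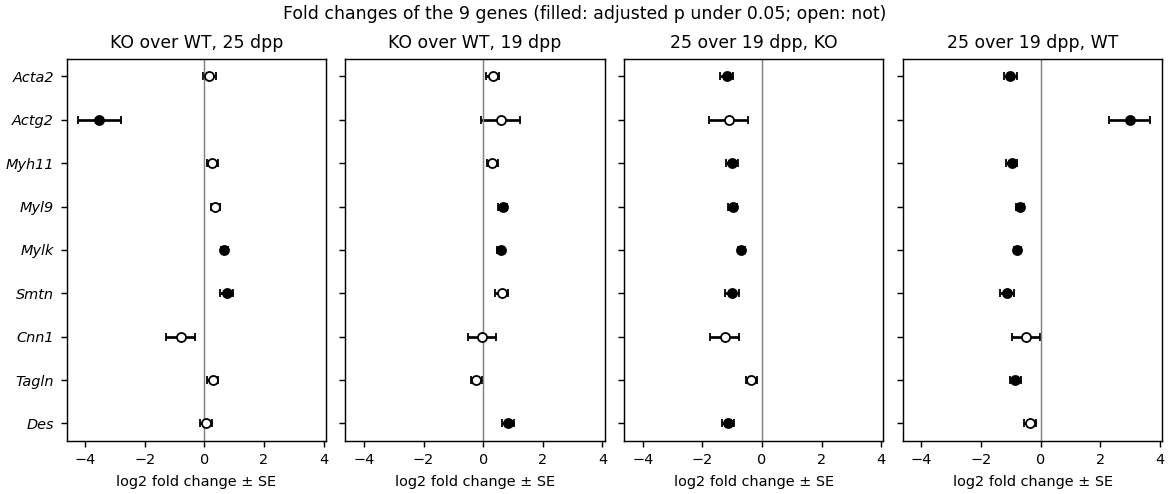
Log2 fold changes of the 9 genes with their SE from edgeR (horizontal axes) in 4 comparisons on the TMM scale, filled where the adjusted p is under 0.05. Mylk is filled in all 4 panels, most genes lie left of 0 in both age panels, and Actg2 lies far left in KO over WT at 25 dpp (−3.52) and far right in 25 over 19 dpp in WT (2.99); scaled to Sertoli genes, the KO over WT values of Mylk turn negative and 25 over 19 dpp in WT turns positive for Mylk, Cnn1, Tagln, Des and Myl9.

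With age, 6 of the 9 contractile genes fell in each genotype. In KO testes 6 of the 9 were called lower at 25 than at 19 dpp and 0 higher, where 8.87% of all genes were called lower and 10.2% higher (19.1% in either direction). In WT testes 6 were called lower and 1, Actg2, higher, where 25.4% of all genes were called lower and 34.9% higher (60.3% in either direction). The members' medians were −1.01 in KO and −0.79 in WT, and those of all genes 0 and 0.01. For all 9 genes both KO libraries at 25 dpp lay below both at 19 dpp, where 32.2% of all genes lay below and 33.3% above. In WT 8 of the 9 lay below and 1 above, where 40.3% of all genes lay below and 43.4% above. No member was higher with age in KO at an unadjusted p under 0.05 or with DESeq2.

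Acta2 had 116 and 177 CPM at 25 dpp and 339.5 and 326 CPM at 19 dpp in KO testes, and 118 and 145 CPM at 25 dpp and 298 and 235 CPM at 19 dpp in WT. It was 2.27-fold lower in KO (log2 −1.18 ± 0.222) and 2.03-fold lower in WT (−1.02 ± 0.221), with edgeR adjusted p of 0.0138 and 0.00598. Myh11 was 2.01-fold lower in KO (−1.01 ± 0.190, edgeR adjusted p = 0.0139) and 1.96-fold lower in WT (−0.97 ± 0.190, edgeR adjusted p = 0.00398). Acta2 and Myh11 thus had like fold changes with age in both genotypes, though no test compared them with each other. Neither passed the test of a difference between the KO effects at 25 and 19 dpp (edgeR adjusted p = 0.778 for Acta2 and 0.986 for Myh11). Those differences were −0.16 ± 0.309 and −0.04 ± 0.266 on the log2 scale.

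Myl9 fell by 0.98 in KO and by 0.70 in WT on the log2 scale, and Mylk fell by 0.70 in KO and by 0.79 in WT. Smtn, the gene with the steepest decline in WT, fell by 1.13 there and by 1.00 in KO. For these 3 the edgeR adjusted p was 0.00873, 0.0105 and 0.0218 in KO and 0.00552, 0.00168 and 0.00412 in WT. Des and Tagln passed in 1 genotype each. Des fell by 1.15 in KO (edgeR adjusted p = 0.0112) and had −0.36 ± 0.199 in WT (adjusted p = 0.148), and the difference between the genotypes, −0.78 ± 0.281, did not pass in edgeR (adjusted p = 0.0881) but did with DESeq2 (adjusted p = 0.00321). Tagln fell by 0.85 in WT (edgeR adjusted p = 0.00525) and had −0.36 ± 0.179 in KO (adjusted p = 0.204), and the difference of 0.50 ± 0.253 did not pass (adjusted p = 0.198). Cnn1 had −1.25 ± 0.485 in KO and −0.49 ± 0.474 in WT and was called in neither genotype by edgeR.

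Leaving out any 1 library kept the 6 genes called in each genotype below 0 with age. Over those fits Acta2 had −1.52 to −0.91 in KO and −1.18 to −0.84 in WT. Mylk had −0.79 to −0.62 in KO and −0.87 to −0.76 in WT. The calls in KO depended on which library was left out, for these genes and for all genes alike (all-gene counts under the last heading). The Sertoli genes also fell with age, 12 of 25 in KO and 22 of 25 in WT. Scaling to them shifted the all-gene median by 0.30 in KO and 0.91 in WT, and 0 contractile genes were called lower by edgeR (5 in KO and 0 in WT at an unadjusted p under 0.05). Few of all genes were called lower on that scale in either genotype (counts under the last heading). The 0 of 9 therefore does not set these genes apart. In KO all 9 then stayed below 0, and in WT Mylk, Myl9, Cnn1, Tagln and Des turned positive while Acta2, Myh11 and Smtn stayed at −0.11, −0.07 and −0.25. KO against WT at 25 dpp and 25 against 19 dpp in WT share the 2 WT libraries at 25 dpp, so their values are not independent.

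Actg2, the gamma actin of gut and other visceral smooth muscle, was the 1 member called lower in KO at 25 dpp and the 1 called higher with age in WT. Transcripts of this gene are also known from haploid germ cells of the mouse. It had 3.19 and 7.10 CPM in KO and 93.3 and 24.2 CPM in WT at 25 dpp, and 9.97 and 12.3 CPM in KO and 6.04 and 8.73 CPM in WT at 19 dpp. The 2 WT libraries at 25 dpp were the highest and differed from each other by more than the other 6 libraries did. Actg2 was 11.5-fold lower in KO than in WT at 25 dpp (log2 −3.52 ± 0.705, edgeR adjusted p = 0.00483). In WT it was 7.95-fold higher at 25 than at 19 dpp (2.99 ± 0.686, edgeR adjusted p = 0.00942), and in KO its log2 fold change with age was −1.12 ± 0.661 (adjusted p = 0.284). At 19 dpp its KO libraries lay above the WT ones without passing the test (0.59 ± 0.650, adjusted p = 0.568).

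The KO effect on Actg2 at 25 dpp differed from that at 19 dpp by −4.11 ± 0.946 (edgeR adjusted p = 0.0300), which made it the 1 member of 9 called in that test, where 19.1% of all genes were called, 11.4% lower and 7.68% higher. The call was not reached without replicate 1 of WT at 19 dpp or without any 1 of the 4 KO libraries (edgeR adjusted p of 0.0541 to 0.0986), nor without the filter on low counts (0.110). Without replicate 1 of WT at 25 dpp, the library with most Actg2, the KO effect at 25 dpp was −2.17 (edgeR adjusted p = 0.00599), the change with age in WT 1.66 (0.0197) and the difference between KO effects −2.81 (0.0255).

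Spermatid genes were highest in WT at 25 dpp, as was Actg2. The 12 spermatid genes summed to 9.38 and 12.8 CPM in KO and 3676 and 662 CPM in WT at 25 dpp, and to 6.08 and 7.15 CPM in KO and 7.19 and 7.53 CPM in WT at 19 dpp. All 12 were called lower in KO than in WT at 25 dpp and higher in WT at 25 than at 19 dpp. Tnp2, Prm1 and Prm2, which package DNA in late spermatids, were at 0 in the 6 libraries other than WT at 25 dpp, whereas Actg2 was present in all 8. Spermatocyte genes, also 12, had another pattern. They summed to 2147 and 3136 CPM in KO and 9983 and 8271 CPM in WT at 25 dpp. At 19 dpp they summed to 341 and 621 CPM in KO and 2125 and 3364 CPM in WT. Their sum thus rose with age in KO, where Actg2 did not. The part of spermatid or spermatocyte content in the Actg2 result was not tested. Set against the main smooth muscle actin in the same library, Actg2 CPM were 2.74% and 4.01% of Acta2 CPM in KO and 79.1% and 16.7% in WT at 25 dpp, and 2.94% and 3.76% in KO and 2.03% and 3.72% in WT at 19 dpp.

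**Figure D3:**
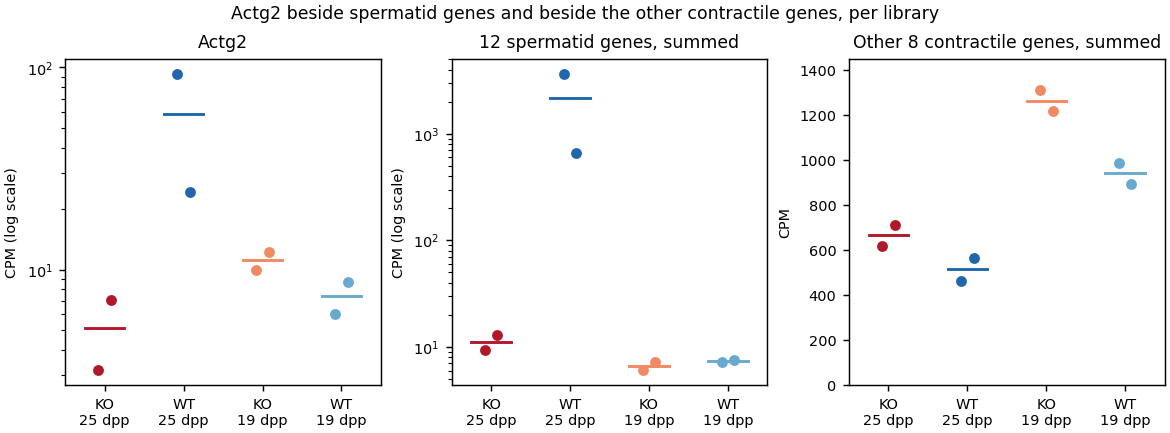
Actg2 (left, log axis), the sum of 12 spermatid genes (middle, log axis) and the sum of the other 8 contractile genes (right, axis from 0), in CPM, with a point per library and a line at the mean of 2. The 2 WT libraries at 25 dpp are the highest points for Actg2 (93.3 and 24.2) and for the spermatid genes (3676 and 662), and the lowest for the other 8 genes (463 and 564).

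Summed over the 8 genes other than Actg2, the contractile transcripts came to 617 and 712 CPM in KO and 463 and 564 CPM in WT at 25 dpp, and to 1310 and 1215 CPM in KO and 987 and 894 CPM in WT at 19 dpp. At each age the KO libraries lay above the WT ones on this scale. Acta2 made up 18.8% and 24.9% in KO and 25.5% and 25.7% in WT at 25 dpp, and 25.9% and 26.8% in KO and 30.2% and 26.3% in WT at 19 dpp. Mylk made up 32.2% and 27.9% in KO and 25.4% and 23.4% in WT at 25 dpp, a larger share in both KO libraries, and 26.0% and 25.1% in KO and 21.4% and 24.6% in WT at 19 dpp, again larger in KO. Smtn, Cnn1, Tagln and Des each made up at most 7.99% of the sum in any library.

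Relative to Sertoli genes of the same library, the 8 contractile genes were lower in KO. Their sum was 5.64% and 7.70% of the Sertoli sum in KO and 14.3% and 13.7% in WT at 25 dpp, and 9.95% and 10.3% in KO and 13.6% and 13.8% in WT at 19 dpp. The WT libraries thus held nearly the same ratio at both ages, while the KO libraries lay lower at both. The contractile genes also stood lower in KO against 20 other genes of myoid cells, at 48.2% and 57.0% of that sum in KO and 73.0% and 67.1% in WT at 25 dpp, and at 40.9% and 43.6% in KO and 56.7% and 50.8% in WT at 19 dpp. Against 12 interstitial stromal genes the ratio was 55.4% and 55.6% in KO and 63.3% and 56.8% in WT at 25 dpp, and 31.9% and 34.7% in KO and 47.6% and 40.1% in WT at 19 dpp. Against 11 vascular smooth muscle and pericyte genes the genotypes overlapped at both ages, at 391% and 470.0% in KO and 461% and 537% in WT at 25 dpp, and at 507% and 597% in KO and 539% and 542% in WT at 19 dpp. Against 12 endothelial genes they overlapped at 25 dpp, with 585% and 724% in KO and 648% and 822% in WT, and not at 19 dpp, with 537% and 666% in KO and 955% and 733% in WT. These 5 ratios were chosen after the levels were seen, and no test was run on them. Single genes weighed heavily in some sums. By mean CPM, Clu made up 39.6% of the Sertoli sum and Mcam 45.1% of the vascular sum. The Sertoli scaling rests on the sum of the same 25 genes.

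**Figure D4:**
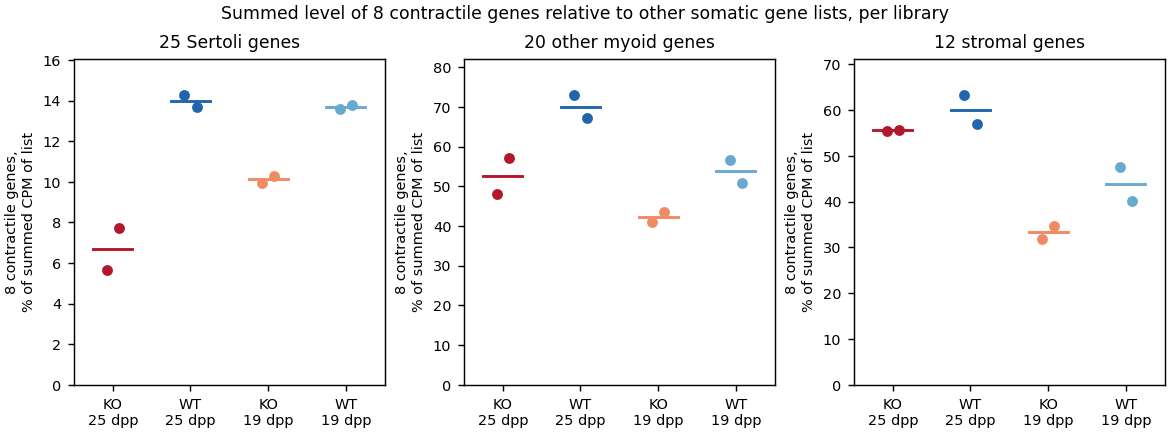
Summed CPM of the 8 contractile genes other than Actg2 as a percentage of the summed CPM of 25 Sertoli genes, 20 other myoid genes and 12 stromal genes (vertical axes, from 0), with a point per library and a line at the mean of 2. Against Sertoli genes the KO libraries lie at 5.64% to 10.3% and the WT libraries at 13.6% to 14.3%; the ratios to vascular and endothelial genes, where the genotypes overlap at 25 dpp, are not plotted.

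A list of 31 further genes, of the contraction machinery and of the cytoskeleton, was counted on the TMM scale. It includes the non-muscle myosin gene Myh10 and the cytoplasmic actin gene Actg1, so its counts do not stand for smooth muscle alone. At 25 dpp 17 were called higher in KO and 4 lower (median 0.52), where 26.1% of all genes were called higher and 37.4% lower. At 19 dpp 13 were called higher, 1 lower and 17 neither way (median 0.44), where all genes had 8.8% higher and 13.2% lower. With age 22 were called lower and 1 higher in KO (median −0.79), where 8.87% of all genes were lower and 10.2% higher, and 22 lower and 2 higher in WT (median −0.90), where 25.4% were lower and 34.9% higher. The focal adhesion gene Vcl had 339 and 333 CPM in KO and 115 and 136 CPM in WT at 25 dpp (log2 1.43), and the intermediate filament gene Vim 409 and 340.1 CPM in KO and 149.5 and 184 CPM in WT (1.17). Synm, whose product joins desmin filaments, resembled Des: it rose by 1.57 in KO at 19 dpp (edgeR adjusted p = 0.0116), had 0.19 at 25 dpp, and its KO effect differed between ages by −1.38 (adjusted p = 0.0488). Myh10, a non-muscle myosin, went the other way and was lower in KO at both ages (−1.34 and −0.91). Csrp2, with 5.49 and 6.35 CPM in KO and 27.9 and 22.3 CPM in WT at 25 dpp, fell by 2.08, and the cytoplasmic actin Actg1 fell by 0.53 there. Scaled to Sertoli genes, 25 of the 31 were called in KO at 25 dpp and 7 at 19 dpp, each of them lower. Of all 23353 genes, 16634 were then called in either direction at 25 dpp (median −1.58) and 9794 at 19 dpp (median −0.83).

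Of 35 listed genes that set the contraction signal, 34 were tested. At 25 dpp 14 were called higher and 5 lower in KO (median 0.42), beside 26.1% and 37.4% of all genes, and at 19 dpp 6 higher and 3 lower (median 0.32), beside 8.8% and 13.2%. Gucy1b1, the beta subunit of the nitric oxide receptor that relaxes smooth muscle, had 21.5 and 18.2 CPM in KO and 2.40 and 2.60 CPM in WT at 25 dpp, a rise of 2.99 on the log2 scale. The calcium release channel gene Itpr1 rose by 1.24 and the protein kinase gene Rock2 by 1.45 at that age. The calmodulin gene Calm2, whose product switches on the Mylk kinase, fell by 1.17, opposite to Mylk. The angiotensin receptor gene Agtr1a had 2.7 and 2.66 CPM in KO and 16.7 and 17.4 CPM in WT at 25 dpp, and 2.68 and 2.87 CPM in KO and 1.12 and 2.10 CPM in WT at 19 dpp. Like Actg2, it fell in KO at 25 dpp (−2.67) and rose with age in WT (3.40). The list held 5 genes of serum response factor, its myocardin family cofactors and a TEAD factor, all given here for that role after their values were seen. Srf was not called in any comparison, and Tead1 rose in KO at both ages (1.52 and 0.97). The cofactor gene Mrtfa had 37.8 and 33.7 CPM in KO and 92.6 and 74.7 CPM in WT at 25 dpp and fell in KO (−1.23, edgeR adjusted p = 0.000889), whereas Mrtfb had 103 and 97.0 CPM in KO and 50.8 and 52.6 CPM in WT and rose (0.95, edgeR adjusted p = 0.000653). Myocd had 3.57 and 2.63 CPM in KO and 1.31 and 1.67 CPM in WT at 25 dpp, just short of the threshold (1.06, edgeR adjusted p = 0.0513). Scaled to Sertoli genes, 2 of the 34 were called higher and 23 lower in KO at 25 dpp. Of all 23353 genes, 16634 were then called in either direction (median −1.58).

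Of 20 myoid genes outside contraction, those of hedgehog response, matrix and signalling, 13 were called higher and 1 lower in KO at 25 dpp (median 0.86), beside 26.1% and 37.4% of all genes. At 19 dpp 12 were called, each of them higher (median 0.89), where 8.8% of all genes were called higher. The hedgehog receptor gene Ptch1 had 108 and 127 CPM in KO and 40.9 and 47.1 CPM in WT at 25 dpp (1.42). Scaled to Sertoli genes, 10 were called in KO at 25 dpp and 1 at 19 dpp, each of them lower. On that scale 16634 of all 23353 genes were called in either direction at 25 dpp and 9794 at 19 dpp. The all-gene medians were then −1.58 and −0.83. Of 11 vascular smooth muscle and pericyte genes 2, Mcam and Abcc9, were called higher and Ndufa4l2 lower in KO at 25 dpp (median 0.43), beside 26.1% and 37.4% of all genes, and 7 were lower and 1 higher with age in WT (median −1.06), beside 25.4% and 34.9%.

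The genes whose levels over the 8 libraries lay closest to the mean profile of the 9 members, among 11983 candidates with a mean of at least 5 CPM, were P4ha2, Tab1, Gypc, Rasip1, Itga7, Akr1c14, Gas6, Fbxw17, Myl6 and Cacnb4. Their root-mean-square difference from it was 0.107 to 0.152 on the log2 scale. That was smaller than for any member, since Des, the member closest to the mean, was at 0.19 and Actg2 at 1.39. The named genes were picked from all candidates for the smallest difference, so this order says nothing about the members. Clone-style and mitochondrial gene names were not among the candidates. The mean profile rests in part on Actg2. Taken without it, a choice made after its values were seen, the closest genes were Eva1b, Acaa1a, Efemp2, Nedd4l, Smarcd3, Pip4k2a, Scrn2, Apcdd1, Impdh1 and Mmd (0.114 to 0.148), and Myh11 was the member closest to the mean of the 8, at 0.09. Likewise chosen afterwards, the genes closest to Actg2 itself were Arhgap30, Sept4, Cst8, Dbndd1, Mirg, Sncaip, Adgrl3, Asb9, Ank2 and Atp10a (0.32 to 0.43).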

How the data were processed

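Per the labels' protocols, whole-testis RNA was taken up in Trizol, cleared of DNA with a QIAGEN DNase set and turned into TruSeq Stranded mRNA libraries. Per the submitters' processing notes, STAR 2.7.0a, featureCounts 1.5.1 and the mm10 build were used; annotation, strand setting and handling of reads with several alignments are not given in the sources used here. The deposited values are raw counts per entry, not normalized by the authors, 1 table per library, with 54087 genes and 1205 repeat families. Repeat families (4.10 to 5.68% of counts) were left out of library sizes and tests. Gene totals were 22515812 to 50445334.

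After filterByExpr by group, 23353 genes were scaled by TMM and fitted in edgeR 4.0.16 (R 4.3.3) with robust quasi-likelihood, all 8 libraries and 1 mean per group (4 residual degrees of freedom). The 5 contrasts were adjusted by Benjamini-Hochberg over all genes, with a threshold of 0.05; "called" means past it, and the unpaired fit is the one reported. Each SE was computed as the size of the log2 fold change divided by the root of its F statistic. A level per kilobase divides CPM by the exon length of GENCODE M21 (same assembly as mm10). The procedure was first run on simulated counts. Counts of replicates differed by more than sampling noise (chi-square over degrees of freedom 16.1 to 85.3), so each library counts as 1.

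The 9 members and the gene lists were chosen with earlier results of these data known. The genes named from each list, up to 4 a contrast, were the 2 with the lowest p and the 2 with the highest mean CPM, of which some were left out after values were seen and a few are not reported here; the 10 genes of nearest profile had a mean of at least 5 CPM and the lowest root-mean-square difference of centred log2(CPM + 0.5). Alternatives were DESeq2 size factors, total counts or Sertoli genes for scaling, no filter, the DESeq2 1.42.0 Wald test, a replicate block and leaving out each library.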

Additional observations from a re-analysis of the deposited data

Results flagged for a closer look

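The KO effect on Actg2, the visceral smooth muscle actin gene, differed between the ages by the test of that difference: it was −4.11 ± 0.946 on the log2 scale at 25 dpp relative to 19 dpp (SE; edgeR quasi-likelihood, adjusted p = 0.0300). Both KO libraries lay below both WT libraries at 25 dpp and both lay above them at 19 dpp. Over the alternative scalings, tests and filters the difference was −3.52 to −4.76, and over the fits that leave out 1 library −2.81 to −4.79. The summed spermatid genes were high in the same 2 WT libraries at 25 dpp, and their part in this difference was not tested.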

How the results depend on the processing

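Of the 45 log2 fold changes of the 9 genes (5 comparisons each), the replicate block left all 45 on the same side of zero and of the threshold. The labels do not say whether replicate numbers mark pairs. Deviations of same-numbered libraries correlated at −0.11 to 0.07 for 5 pairs of groups. For 1 pair, WT at 19 dpp and KO at 25 dpp, the correlation was 0.47. With 2 libraries a group these values cannot settle whether libraries were paired. With the block 3 members were higher in KO at 19 dpp, 2 higher and 1 lower at 25 dpp, as without it.

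Scaling to Sertoli genes changed the most; why a setting moved a value was not tested. KO against WT then gave at 25 dpp Acta2 −1.26, Myh11 −1.16, Mylk −0.79, Tagln −1.18, Des −1.41, Myl9 −1.08 and Smtn −0.71, and at 19 dpp Acta2 −0.53, Myh11 −0.56, Mylk −0.29, Des −0.045, Myl9 −0.21, Actg2 −0.28 and Smtn −0.26. With age in WT it gave Mylk 0.12, Cnn1 0.40, Tagln 0.066, Des 0.54 and Myl9 0.20, and for the difference between KO effects Mylk −0.50, Tagln −0.10 and Smtn −0.45. Members called were 0 higher and 9 lower at 25 dpp, 0 higher and 1 lower at 19 dpp and 0 lower with age in either genotype. All genes called were 233 higher and 16401 lower at 25 dpp, 76 and 9718 at 19 dpp, 555 lower with age in KO, 381 lower in WT, and 136 higher for the difference.

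With total counts 6 members were higher at 25 dpp, 1 at 19 dpp and 1, Tagln, for the difference, where Acta2, Myh11 and Myl9 turned to 0.38, 0.50 and 0.25. All genes called were 1284 higher at 19 dpp, 9718 lower with age in WT and 5549 higher for the difference. At 25 dpp 16100 of all genes were called in either direction. DESeq2's test called 3380 genes higher at 19 dpp, 4289 higher with age in KO, and 2963 higher and 4921 lower for the difference, with 2 members lower, Actg2 and Des. Des at 25 dpp and the Mylk difference turned to −0.0611 and −0.0068 with it, and to −0.0606 and −0.0073 with its size factors in edgeR. Without the low-count filter Actg2 was no longer called with age in WT (0 members higher) or for the difference (0 lower), and the Myh11 difference was 0.061.

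Leaving out 1 library changed how many members were called in every comparison but that of ages within WT. The genes called in KO against WT kept their direction. At 25 dpp Mylk had 0.67 to 0.75, Smtn 0.55 to 1.04 and Actg2 −4.20 to −2.17. At 19 dpp Mylk had 0.50 to 0.70, Myl9 0.57 to 0.77 and Des 0.70 to 0.97. All genes called ranged from 0 to 2742 higher and 0 to 3011 lower at 19 dpp, 3 to 2756 higher and 14 to 2550 lower with age in KO, 3901 to 5771 lower in WT, and 257 to 2342 higher and 952 to 3229 lower for the difference. Uncalled values changed sign: KO against WT, Cnn1 −0.12 to 0.073 and Tagln −0.45 to 0.037 at 19 dpp and Acta2 −0.18 to 0.43, Myh11 −0.0012 to 0.49 and Des −0.011 to 0.12 at 25 dpp; differences, Acta2 −0.50 to 0.11, Myh11 −0.30 to 0.19 and Smtn −0.077 to 0.42.

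With 2 libraries a group and 4 residual degrees of freedom, leaving out 1 library ended the call for 34 member values, made a call for 7, turned the sign of 13 and left 306 as they were, and the library left alone was assumed to vary like the other groups. The lowest counts per library were 88 for Cnn1 and 118 for Actg2.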
